A study of Homo sapiens with 16 samples.

Results

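Broad acetylated domains shared by the cisplatin (cPt)-sensitive line A2780 and its resistant derivative A2780cis were identified from the H3K27ac peak lists of both lines. Peaks on the autosomes were merged wherever they shared 1 bp or more, and a merged region was kept when it exceeded 10 kb and held a peak of both lists. This gave 2081 broad domains out of 31493 merged regions. A further 11701 regions had peaks of both lines but measured 10 kb or less, and 485 regions over 10 kb held peaks of only 1 line, 305 of A2780 and 180 of A2780cis.

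H3K27ac is the acetylation of lysine 27 of histone H3, which marks active enhancers and promoters, and H3K9ac is the acetylation of lysine 9, which is found mostly at active promoters and strong enhancers. Most acetylated sites are short. Long unbroken stretches arise where neighbouring enhancers and promoters are acetylated together, often around genes that are highly transcribed or that characterize a cell type, and such stretches overlap with what is called a super-enhancer. MBD3 belongs to NuRD, a chromatin complex that combines nucleosome remodelling with histone deacetylases, the enzymes that remove these marks.

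A2780 is an endometrioid epithelial ovarian cancer line, labelled as untreated, and A2780cis is its cPt-treated, resistant derivative. H3K27ac and H3K9ac were measured in both lines. H3K27ac was also measured in A2780 cells carrying a hairpin against MBD3, either shMBD3.26 or shMBD3.232, after 1 week of knockdown, and in the high-grade serous line CAOV4 and CAOV4cis, which was derived from it by prolonged exposure to rising cPt. All 8 profiles came from mononucleosomes released with micrococcal nuclease and supplemented with 5% of Drosophila mononucleosomes, and every condition was represented by 1 library, so no difference between conditions below has a replicate check or a p-value. A control hairpin was not analysed here. By the study's methods, the hairpin cells were also transduced, selected with G418, induced with doxycycline and sorted for GFP. The effects of these steps and of a hairpin as such cannot be told apart from that of MBD3 loss. The 8 lists held between 15365 and 28665 peaks, with autosomal peaks covering 53.6 to 96.7 Mb. They gave positions only, with a score of 0 throughout, and the read depth behind them is unknown. Domain width therefore means the length under called peaks, not signal strength. No list had a peak on chromosomes 20 to 22, and the last listed position on chromosome 1 was 197.19 Mb, so that the domains cover chromosomes 1 to 19 and not all of the larger ones. Intervals in brackets are 95% Wilson intervals for shares and exact binomial order-statistic intervals for medians. They cover counting error over domains only.

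The hairpin sequences are shown as the study lists them under guide sequence, because the 2 knockdown lists rest on different sequences. Both are written 5′ to 3′ as DNA letters, with bases 2 to 8, the seed position of a guide, in capitals. Whether each listed strand is the one that pairs with MBD3 mRNA was not checked, so the capitals mark a position only.
shMBD3.26: aACAAGGTcaagagcgacccgc
shMBD3.232: tTGCTCATcagcatcttgcccg

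The 2081 domains spanned 41.1 Mb. Their median length was 14.6 kb [14.2 to 15.0], the middle 50% lay between 11.8 and 20.8 kb, and 10% exceeded 34.6 kb. Beyond that the lengths tailed off, with 92 domains over 50 kb and 11 over 100 kb, up to 175 kb. The domains held 12.7% of the autosomal H3K27ac peaks of A2780 but 33.2% of the length they cover, and 13.3% of the peaks of A2780cis but 38.5% of their length. Of the H3K9ac length, 34.4% in A2780 and 41.2% in A2780cis lay in the domains. Since length chose the domains, these H3K27ac shares are a description. At the limit, 64 domains measured 10.2 kb and 77 shared regions measured 10 kb. The first 3 domains inside were under A2780 peaks for 8.6 to 10.2 kb and under A2780cis peaks for 6.0 to 8.2 kb, and the first 3 regions outside for 4.8 to 7.4 kb and 8.6 to 10 kb.

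Domains were more often split into several peaks in A2780 than in A2780cis. The lists as a whole differed in the same way, with 27932 autosomal peaks of median width 2200 bp in A2780 and 20245 of 2800 bp in A2780cis. The split was not computed over all shared regions, so it is not shown to be particular to the domains. In 881 domains (42.3%) each line had 1 peak. In 723 domains (34.7%) several A2780 peaks lay under 1 A2780cis peak, while the opposite held in 253 (12.2%). The remaining 224 had several peaks in each line. Peaks of both lines covered at least 50% of the domain in 1693 of 2081 (81.4% [79.6 to 83.0]), and 741 (35.6%) had a single peak over 10 kb in both. In 251 domains neither line had a peak of that size, and the domain length came from joining shorter peaks across the lines.

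At the other end, 39 domains were under A2780 peaks for less than 10% of their length and 27 under A2780cis peaks for less than 10%. These 66 regions were kept in both lines only in the sense that a short peak remained. In the 39 domains, H3K9ac peaks covered a median of 0% in A2780 and 62.9% in A2780cis. In the 27 domains, the H3K9ac medians were 75.4% in A2780 and 0% in A2780cis.

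Over the whole lists, autosomal H3K27ac peaks covered less in A2780cis (91.5 Mb) than in A2780 (96.7 Mb). Across all domains, however, the length under H3K27ac peaks was slightly greater in A2780cis. The median covered share was 85.2% [84.4 to 86.4] in A2780 and 93.6% [92.6 to 94.4] in A2780cis. The log2 ratio of A2780cis to A2780 had a median of 0.10 [0.08 to 0.13], which is 1.07-fold, with the middle 50% between -0.19 and 0.48. Covered length differed by less than 1.5-fold in 1379 domains (66.3%). It was at least 1.5-fold greater in A2780cis in 433 domains (20.8%, against 25.7% of all 13782 shared regions) and at least 1.5-fold smaller in 269 (12.9%, against 15.9%). Wider regions also outnumbered narrower ones among all shared regions (3537 against 2189), so the balance is not particular to the domains. The lists that chose the domains gave these values, so they are a description without a test. The balance differed between settings. When peaks up to 5 kb apart were merged, which gave 3531 domains, the median log2 ratio was 0, and 19.5% were wider and 21.8% narrower. When peaks were linked at 50% of the shorter one, the median was 0.13, with 21.8% wider and 12.8% narrower. Whether the joining or the changed set of regions moved the balance was not tested.

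**Figure D1:**
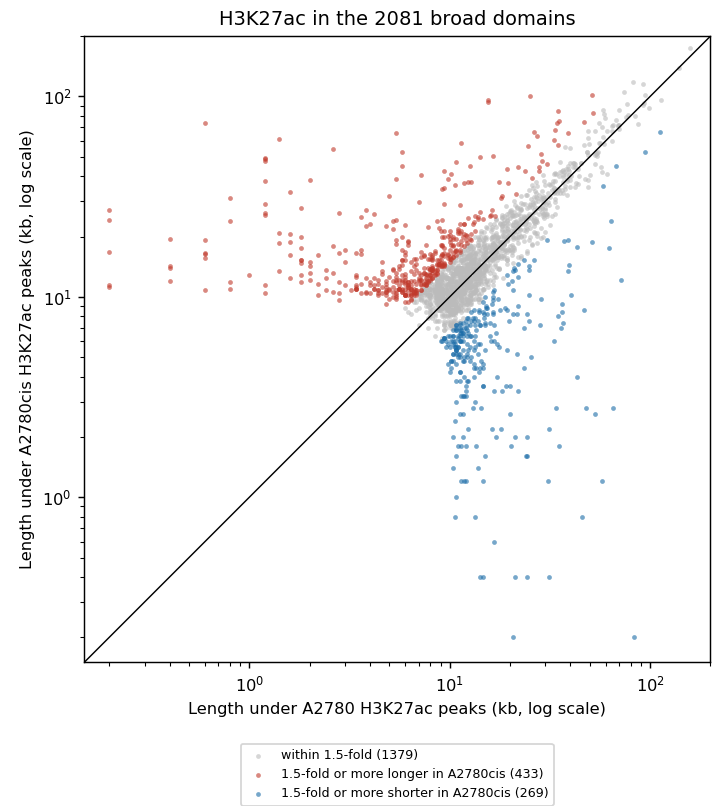
Length under H3K27ac peaks in A2780 (x axis, kb, log scale) and A2780cis (y axis, kb, log scale) for each of the 2081 domains, one point per domain. The diagonal marks equal length. Most points (1379, grey) lie within 1.5-fold of it, 433 (red) lie above and 269 (blue) below, and both coloured groups reach points at which 1 line keeps well under 1 kb.

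The longest domain, chr7:130555001-130730000 (hg19), measured 175 kb. A2780 peaks covered 158.8 kb of it and A2780cis peaks 173.6 kb. H3K9ac peaks covered 116.0 kb in A2780 and 145.6 kb in A2780cis. With shMBD3.26 and shMBD3.232 the H3K27ac peaks covered 138.8 and 157.8 kb, so that the H3K27ac lists of A2780 origin covered most of it. In contrast, CAOV4 peaks covered 2.2 kb and CAOV4cis peaks 8.0 kb.

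The second longest, chr2:172837801-172979400 (141.6 kb), was the most even of the 10 longest in the A2780 lists. H3K27ac covered 139.8 kb in A2780, 138.6 kb in A2780cis, 133.2 kb with shMBD3.26 and 133.0 kb with shMBD3.232. H3K9ac covered 127.6 and 124.8 kb in A2780 and A2780cis, whereas CAOV4 and CAOV4cis had 6.6 and 14.4 kb of H3K27ac.

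On chromosome 1, the third and sixth longest domains differed between the lines in opposite directions. In chr1:172285601-172403800 (118.2 kb), H3K27ac covered 81.8 kb in A2780 and all 118.2 kb in A2780cis, and H3K9ac covered 65.8 and 118.0 kb. In chr1:172048601-172161200 (112.6 kb), H3K27ac covered 111.6 kb in A2780 and 66.2 kb in A2780cis, with H3K9ac at 108.6 and 72.8 kb. The hairpin lists stayed near A2780 in both, at 68.8 and 60.4 kb in the first and 109.2 and 110.0 kb in the second.

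Of the other domains among the 10 longest, chr10:54353801-54469800 (116.0 kb) and chr5:58496601-58598400 (101.8 kb) were fully covered in A2780cis and had 91.8 and 51.0 kb in A2780. The latter also had H3K9ac over 101.6 kb in A2780cis and 18.2 kb in A2780. The domains chr10:16882601-16998400 (115.8 kb) and chr12:54593001-54696400 (103.4 kb) were wider in A2780, at 113.2 against 96.4 kb and 98.8 against 87.6 kb. The domain chr12:66202401-66307600 (105.2 kb) combined long H3K27ac, 94.6 kb in A2780 and 101.6 kb in A2780cis, with much shorter H3K9ac of 32.4 and 39.0 kb. In chr9:97754401-97859400 (105 kb), H3K27ac covered 74.4 kb in A2780 and 105 kb in A2780cis, and H3K9ac 30.2 and 95.6 kb. It was also among the 2 of the 10 with substantial peaks in CAOV4 (43.8 kb) and CAOV4cis (32.0 kb), the other being chr12:54593001-54696400 with 38.4 and 47.4 kb. In the remaining 8, no CAOV4-derived list covered more than 14.4 kb.

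The domains with the largest A2780cis to A2780 ratio had 0.2 to 0.6 kb under A2780 peaks. In chr7:15940001-15967200, H3K27ac covered 0.2 kb in A2780 and 27.2 kb in A2780cis, and H3K9ac 1.2 and 22.6 kb. In chr7:25276601-25350600, the values were 0.6 and 74.0 kb for H3K27ac and 0 and 48.0 kb for H3K9ac. The domain chr9:12968001-12992200 had 0.2 and 24.2 kb of H3K27ac and differed from the others in its CAOV4 lists, with 13.8 kb in CAOV4 and 12.8 kb in CAOV4cis. The other two, chr2:41891801-41908600 and chr1:195646601-195658000, had 0.2 kb in A2780 and 16.8 and 11.4 kb in A2780cis. None of the 5 had more than 0.2 kb in a hairpin list.

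The 5 domains with the smallest ratio mirrored them. In chr9:14460001-14543000, H3K27ac covered all 83.0 kb in A2780 and 0.2 kb in A2780cis, and H3K9ac 73.0 and 0 kb. This domain stayed at 67.0 kb with shMBD3.26 and 49.2 kb with shMBD3.232 and had no peak in CAOV4 or CAOV4cis. A pair of domains on chromosome 7, chr7:25694401-25718800 and chr7:25789801-25821000, had 24.4 and 31.2 kb in A2780, 0.4 kb each in A2780cis, and their full length with both hairpins. They lie less than 1 Mb from chr7:25276601-25350600, which differed in the other direction. The domain chr14:61717601-61763400 had 45.8 kb in A2780 and 0.8 kb in A2780cis, and a 20.8 kb domain on chromosome 8 had 20.8 and 0.2 kb. The latter carried little H3K9ac even in A2780, at 1.2 kb, whereas the other four had between 22.4 and 73.0 kb.

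**Figure D2:**
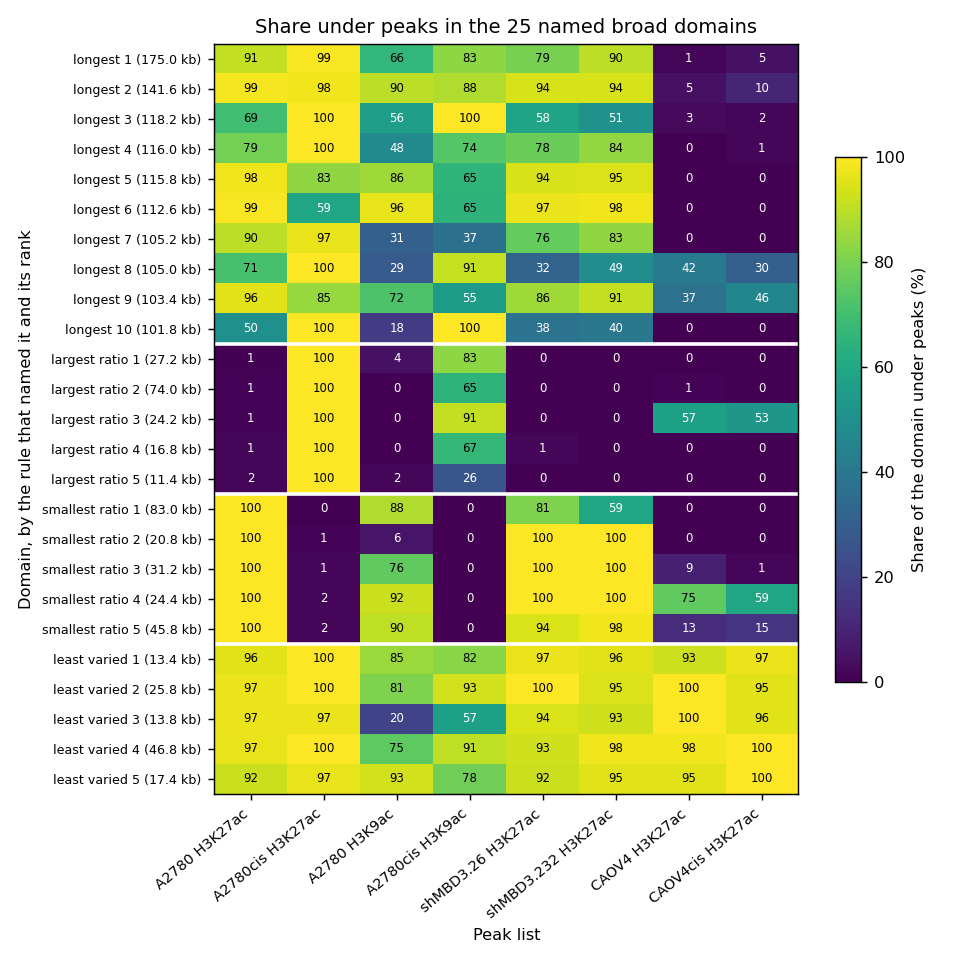
Share of each of 25 named domains under peaks (colour and printed value, %) in the 8 lists (columns), with the domains in rows by the rule that named them and their length in brackets. The 10 longest are mostly bright in the H3K27ac lists of A2780 origin and mostly dark in the CAOV4 columns, the domains of largest and smallest ratio are bright for H3K27ac in 1 of the lines and dark in the other, and the 5 least varied are bright in all 6 H3K27ac columns.

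Adjacent domains lying close together mostly differed in the same direction where both were called wider or narrower. The same measure was not computed over all shared regions, so it is not shown to be particular to the domains. Among 761 pairs of adjacent domains no more than 50 kb apart, both were wider in A2780cis in 66, both narrower in 45, and 1 wider and 1 narrower in 19. Among 398 adjacent pairs over 1 Mb apart the numbers were 23, 10 and 31. The log2 ratios of adjacent domains had a Pearson r of 0.49 (n = 761 pairs) up to 50 kb and 0.00 (n = 398) over 1 Mb, given as a description since pairs share libraries and some share a domain. By chromosome, the median log2 ratio was between -0.18 (chromosome 13, 24 domains) and 0.29 (chromosome 9, 58 domains). Chromosome 4 had 21 of 64 domains narrower in A2780cis (32.8% [22.6 to 45.0]), the highest share of any chromosome, compared with 12.9% of all domains. The share narrower among all shared regions of chromosome 4 was not computed, so this is not shown to be particular to the domains. The share of shared regions that were broad was between 9.85% on chromosome 5 and 19.8% on chromosome 19. Copy number and gene density along these chromosomes were not analysed here.

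H3K9ac, which took no part in the choice of domains, was present in nearly all of them. An A2780 H3K9ac peak lay in 95% [94.0 to 95.9] of domains, against 69.7% of all shared regions, and an A2780cis peak in 93.5% [92.4 to 94.5], against 69.5%. Longer regions have more room for a peak, so these shares rise with length by construction. The share of domains at least 50% covered by H3K9ac differed less from the shared regions, with 39.9% against 39.1% in A2780 and 51.9% against 45.8% in A2780cis. Both lines had H3K9ac in 1871 domains, and 29 domains (1.39%, against 18.5%) had none in either line.

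H3K9ac was narrower than H3K27ac and lay inside it. H3K9ac peaks covered a median of 43.1% [41.7 to 44.3] of a domain in A2780 and 51.0% [49.2 to 52.8] in A2780cis, or 52.2% and 57.3% of the H3K27ac length of the same line. Conversely, 95.7% of the H3K9ac length in the domains was under H3K27ac peaks in A2780 and 97.6% in A2780cis. The H3K9ac share was greater in the longest domains. In the 690 domains up to 12.5 kb the median was 42.2% in A2780 and 47.5% in A2780cis, and in the 151 domains over 40 kb it was 58.0% [46.2 to 67.1] and 72.8% [68.1 to 78.4].

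The difference between the lines in H3K9ac followed that in H3K27ac. In the 433 domains with wider H3K27ac in A2780cis, the median H3K9ac share was 23.4% [19.4 to 26.3] in A2780 and 56.6% [51.9 to 60.2] in A2780cis. In the 269 narrower domains it was 54.2% [50 to 60.6] and 18.5% [12.8 to 22.6]. In the 1379 domains within 1.5-fold it was 47.4% and 55.1%. An H3K9ac peak was listed only in A2780cis in 54 of the wider domains and only in A2780 in 8, whereas among narrower domains the counts were 2 and 66. Over the 1871 domains with H3K9ac in both lines, the log2 ratios of the marks had a Pearson r of 0.65 and a Spearman rho of 0.53, as a description across domains of the same libraries.

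Domains without H3K9ac in either line were at most 20 kb long. The longest, chr15:37315601-37335600, had 1.8 kb of H3K27ac in A2780 and 20 kb in A2780cis, and no peak in any hairpin or CAOV4 list. The next, chr14:100028001-100047800 (19.8 kb), behaved differently, with 19.8 kb in A2780, 7.6 kb in A2780cis, 17.8 kb in CAOV4 and 18.0 kb in CAOV4cis. The domains chr3:127784801-127801000 and chr1:182817401-182832400 were fully covered in A2780cis and had 6.0 and 6.4 kb in A2780. Of the 5 longest, chr19:4356801-4371400 was similar in both lines, at 14.0 and 13.6 kb.

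**Figure D3:**
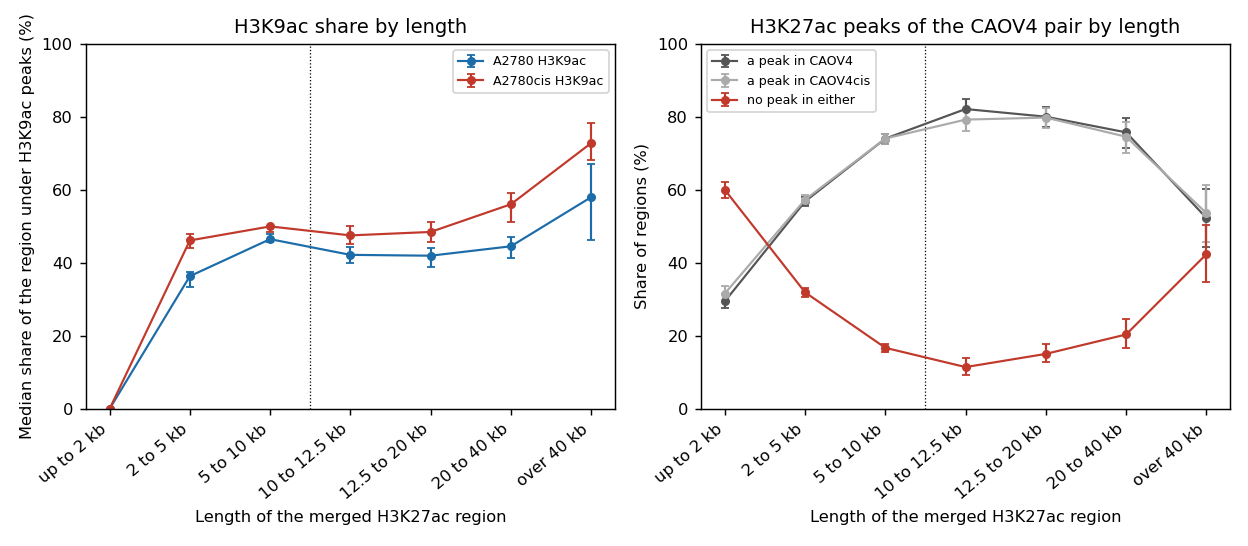
Shared H3K27ac regions by length class (x axis, with the 10 kb limit dotted). Left, median share of the region under H3K9ac peaks (%) with order-statistic intervals, which is greatest over 40 kb (58.0% and 72.8%). Right, share of regions (%) with a CAOV4 or CAOV4cis H3K27ac peak and with neither, with Wilson intervals, where the share with neither falls to 11.4% at 10 to 12.5 kb and reaches 42.4% over 40 kb.

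Most domains were also acetylated in the second pair of ovarian cancer lines, but less completely. A CAOV4 peak lay in 77.9% [76.1 to 79.6] of domains, against 60.9% of all shared regions, and a CAOV4cis peak in 76.7% [74.8 to 78.5], against 61.3%. Peaks covered at least 50% of the domain in 33.7% in CAOV4, against 37.8%, and in 34.9% in CAOV4cis, against 40%. The median covered share was 32.5% [30.5 to 34.4] and 32.6% [30.0 to 34.9]. Both lines had a peak in 1488 domains and neither in 352 (16.9% [15.4 to 18.6], against 29.5%).

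Although a longer region has more room for a peak, the longest domains were least often shared with CAOV4. Neither CAOV4 list had a peak in 11.4% [9.28 to 14.0] of the 690 domains of 10 to 12.5 kb, 15.1% of the 823 domains of 12.5 to 20 kb, 20.4% of the 417 domains of 20 to 40 kb and 42.4% [34.8 to 50.4] of the 151 domains over 40 kb. These intervals count domains as if independent, and each CAOV4 list came from 1 library, so the trend is a description. In the domains over 40 kb, CAOV4 peaks covered a median of 1.08% and CAOV4cis peaks 1.21%, compared with 36.3% and 37.1% in the domains of 10 to 12.5 kb. The hairpin lists differed less with length. They had a peak in 96.7% (shMBD3.26) and 94.0% (shMBD3.232) of the domains over 40 kb, slightly below the 98.0% and 96.9% of all domains.

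Absence from CAOV4 also went with a difference between A2780 and A2780cis. The share without a CAOV4 or CAOV4cis peak was 11.6% [10.02 to 13.4] in the domains within 1.5-fold, 25.4% [21.5 to 29.7] in those wider in A2780cis and 30.5% [25.3 to 36.2] in those narrower. These shares by class were not computed over all shared regions, so the link is not shown to be particular to the domains. The 5 longest domains without a CAOV4 peak comprised 4 of the 10 longest of all, on chromosomes 1, 5, 10 and 12, and chr7:15638601-15739400 (100.8 kb), in which H3K27ac covered 25.2 kb in A2780 and 100.8 kb in A2780cis. By chromosome, domains without a CAOV4 peak were fewest on chromosomes 19 (14 of 264) and 11 (8 of 135) and most frequent on chromosome 13 (11 of 24).

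In the CAOV4 pair, domains wider and narrower in the resistant line were about equally frequent. In the 1488 domains with both peaks the log2 ratio of CAOV4cis to CAOV4 had a median of 0.03 [0 to 0.06]. Covered length was at least 1.5-fold greater in CAOV4cis in 263 (17.7%, against 19% of shared regions with both peaks) and smaller in 237 (15.9%, against 14.4%). Of the 255 such domains that were wider in A2780cis, 64 were also wider in CAOV4cis (25.1% [20.2 to 30.8]) and 33 narrower (12.9% [9.37 to 17.6]). Of the 140 that were narrower in A2780cis, 25 were narrower in CAOV4cis (17.9%) and 31 wider (22.1%). Of the 1093 within 1.5-fold in A2780cis, 168 were wider in CAOV4cis (15.4%) and 179 narrower (16.4%). The same shares were not computed over all shared regions, and no test was run, so these counts are a description.

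Both hairpin lists retained nearly all domains. A peak was listed with shMBD3.26 in 98.0% [97.3 to 98.5] of domains, against 87.2% of all shared regions, and with shMBD3.232 in 96.9% [96.1 to 97.6], against 83.7%. At least 50% of the domain was covered in 70.8% (against 65.7%) and 77.7% (against 66.1%). In 76 domains (3.65%, against 20.5%) at least 1 hairpin list had no peak, and in 29 neither had one.

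The domains were nevertheless shorter under the hairpin lists than in untransduced A2780. Where a peak was listed, the log2 ratio to A2780 had a median of -0.31 [-0.33 to -0.29] for shMBD3.26 and -0.19 [-0.21 to -0.16] for shMBD3.232. Covered length was at least 1.5-fold smaller in 28.5% of domains with shMBD3.26, against 27.8% of all shared regions, and in 18.8% with shMBD3.232, against 23.9%. It was at least 1.5-fold greater in 32 domains (1.57%, against 4.22%) and 39 domains (1.93%, against 4.29%). Only length inside the domain was counted, and its edges were set by A2780 and A2780cis, which limits how much wider a hairpin list can be. Both ratios share the A2780 list as reference. The hairpin lists were also shorter as a whole, with 76.5 and 78.9 Mb under autosomal peaks compared with 96.7 Mb in A2780. With equal numbers of the widest peaks per list, the median log2 ratios were -0.31 for shMBD3.26 and -0.18 for shMBD3.232. That setting equalizes the number of peaks and not the length they cover. Whether covered list length accounts for the shorter domains was not tested.

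In the 433 domains wider in A2780cis, the median covered share was 48.8% in A2780, 37.7% with shMBD3.26, 39.3% with shMBD3.232 and 100% in A2780cis. In the 269 narrower domains the medians were 100% in A2780, 71.0% and 83.0% with the hairpins and 42.6% in A2780cis. The hairpin medians were below that of A2780 in every class, including the domains within 1.5-fold (68.7% and 76% compared with 87.3%). The 27 domains nearly absent in A2780cis had medians of 92.6% and 97.2% in the hairpin lists, with a peak in all 27.

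**Figure D4:**
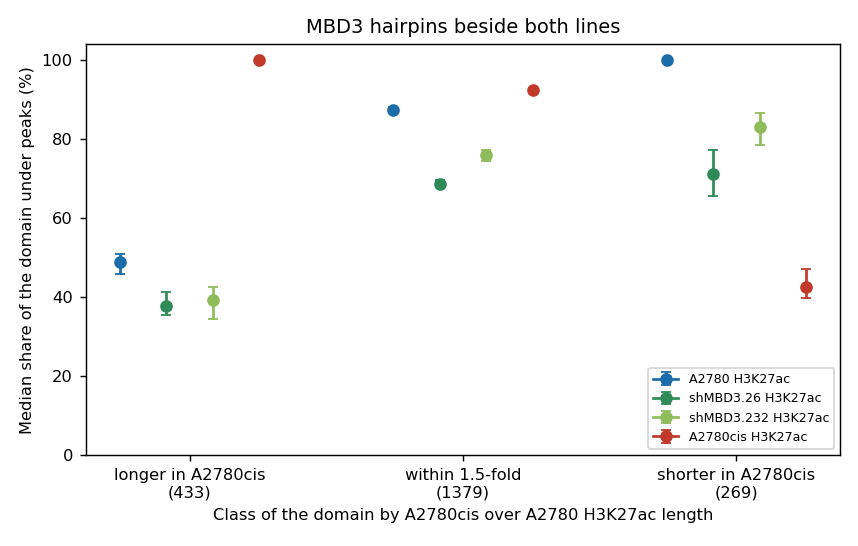
Median share of the domain under H3K27ac peaks (y axis, %) in A2780, with both hairpins and in A2780cis, for the 433, 1379 and 269 domains that were wider, within 1.5-fold and narrower in A2780cis; bars are order-statistic intervals. Both hairpin lists lie below A2780 in each class, and A2780cis is highest in the wider class and lowest in the narrower class. The classes were defined by A2780 and A2780cis.

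Of the 1856 domains at least 50% covered in A2780, 8 had no peak with shMBD3.26 (0.431%, against 10.1% of all 12028 shared regions covered to this degree). With shMBD3.232, 17 had none (0.916%, against 12.7%), and 2 had none with either hairpin (against 6.28% of shared regions). Longer regions have more room for a peak, so these shares are not compared at equal length. The 8 domains without shMBD3.26 measured at most 16.0 kb. The domains without shMBD3.232 were longer and clustered, and 10 of the 17 fell into 3 spans. In chr12:47413801-47644800, 3 domains had 108 kb of H3K27ac in A2780, 133.4 kb in A2780cis, 45.4 kb with shMBD3.26 and none with shMBD3.232. They included chr12:47570001-47644800 (47.0 kb in A2780, 10.4 kb with shMBD3.26) and chr12:47456601-47509800 (49.2 kb and 28.2 kb). In chr1:102063601-102347000, 5 domains had 101.2 kb in A2780, 130.2 kb in A2780cis, 56.8 kb with shMBD3.26 and none with shMBD3.232. In chr3:105922001-106127800, 3 domains had 74.4 kb in A2780, 83.2 kb in A2780cis, 13.2 kb with shMBD3.26 and none with shMBD3.232, and H3K9ac there covered 0.4 kb in A2780 and 62.8 kb in A2780cis. In all 3 spans both hairpin lists were below A2780, with shMBD3.232 at 0. The spans were singled out after the values were seen, and with 1 library per hairpin the difference between the hairpins has no replicate check.

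The other long domains with no hairpin peak were those nearly absent in A2780 itself. Beside chr7:25276601-25350600, chr17:28319801-28380800 (61.0 kb) had 1.4 kb in A2780 and all 61.0 kb in A2780cis, and chr11:102770601-102825200 (54.6 kb) had 2.6 and 54.6 kb. Neither had a peak with any hairpin or in CAOV4 or CAOV4cis.

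Along the domains, coverage was lowest at the edges in all 8 lists. In the 2 lists that set the edges, the mean covered share was 85.0% in the middle 20% of the length and 63.5% in the outer 10% at each end for A2780, and 91.2% and 71.0% for A2780cis. In the other H3K27ac lists it went from 72.8% to 35.7% with shMBD3.26, from 77.1% to 41.9% with shMBD3.232, from 42.3% to 22.6% in CAOV4 and from 42.7% to 24.4% in CAOV4cis. H3K9ac declined from 51.9% to 25.8% in A2780 and from 60.1% to 27.7% in A2780cis, so that the gap between the lines in H3K9ac lay mainly in the interior.

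**Figure D5:**
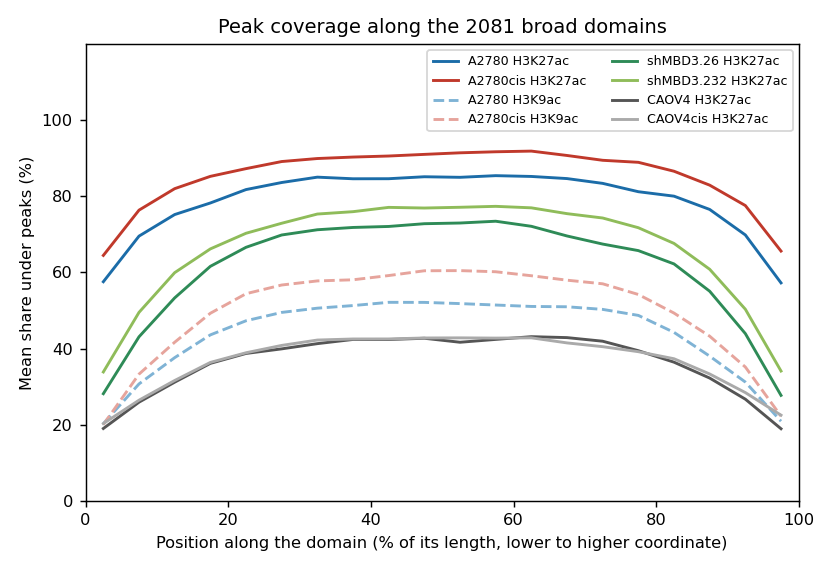
Mean share under peaks (y axis, %) in 20 equal steps along the 2081 domains (x axis, % of domain length). Solid lines are H3K27ac lists and dashed lines H3K9ac lists; every list is highest in the interior, A2780cis H3K27ac reaches 91.2% in the middle 20%, and the CAOV4 lists are lowest there, at 42.3% and 42.7%.

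Most domains held a peak in every H3K27ac list, though longer regions have more room for one. Fewer were at least 50% covered in every list. A peak lay in all 6 in 1474 domains (70.8% [68.8 to 72.7], against 48.1% of shared regions), at least 50% was covered in all 6 in 414 (19.9%, against 20%), and 87 had a single peak over 10 kb in all 6. The 5 domains with the least varied covered length were complete or nearly so throughout. The longest of them, chr11:65233201-65280000 (46.8 kb), had 45.2 kb in A2780, 46.8 kb in A2780cis, 43.4 and 45.8 kb with the hairpins, 45.8 kb in CAOV4 and 46.8 kb in CAOV4cis. In chr11:118776601-118802400 (25.8 kb) the 6 lists had between 24.4 and 25.8 kb, and in chr1:150941201-150958600 (17.4 kb) between 16.0 and 17.4 kb. The shortest, chr12:58279801-58293200 (13.4 kb), had 12.4 to 13.4 kb. In chr14:105475601-105489400 (13.8 kb) the H3K27ac lists had 12.8 to 13.8 kb, while H3K9ac covered 2.8 kb in A2780 and 7.8 kb in A2780cis.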

How the data were processed

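Per the labels and the study's methods, reads were aligned with Bowtie2 (GRCh37/hg19 named in the processing notes), the authors quantile normalized the profiles, and peaks were called with MACS2, 1 list per sample. Versions and settings are not given in the sources used here. The deposited score column was 0 in all rows and was not used. Peak edges lay on a 200 bp grid in all but 1 of 179695 rows, and the 8 input samples had no list analysed here. Peaks were merged, and covered length, number and widest peak of each list in each domain were computed in Python 3.11.15 (pandas 2.3.3, numpy 2.4.6). SciPy 1.17.1 gave the intervals and matplotlib 3.10.9 the plots. Wider or narrower means a 1.5-fold difference in covered length. The width call was checked on a copy of the A2780 list with some peaks shortened. That check did not cover the joining of several peaks across lists. Backgrounds are all 13782 autosomal regions with peaks of both A2780 and A2780cis. No test was run, since each condition was 1 library. Domains named were the 10 longest, the 5 of largest and smallest ratio, the 5 longest without CAOV4, H3K9ac or hairpin peaks, those next to the limit and the 5 of smallest coefficient of variation over 6 H3K27ac lists. The domains, rules and alternatives were chosen with earlier results of these data known. No annotation of hg19 was used, so genes and sequences of the domains are not given. Guide sequences came from the study's supplementary table. Alternatives were other length limits, joining rules, equal numbers of the widest peaks per list and other measures of width and presence.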

Additional observations from a re-analysis of the deposited data

Results flagged for a closer look

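Chromosome X lay outside the choice of autosomal domains. By the same rule it held 34 broad domains among 440 shared regions (7.73% [5.58 to 10.6]). On the autosomes with peaks this share was between 9.85% (chromosome 5) and 19.8% (chromosome 19). Their median length was 16.8 kb, the median log2 ratio of A2780cis to A2780 was 0.43, and 14 were at least 1.5-fold wider and 4 narrower in A2780cis. H3K9ac covered a median of 23.8% in A2780 and 41.7% in A2780cis, and 26 of the 34 had a peak in CAOV4 or CAOV4cis.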

How the results depend on the processing

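No paired analysis was possible because each condition was 1 library. Recomputing 13 values under 10 alternatives gave 101 values, of which 45 stayed within their counting interval (counts within 1.5 times) and 56 moved. A change of sign was possible only for the log2 ratios, and 0 of the values changed sign. The balance of wider and narrower domains did turn with peaks up to 5 kb apart merged, at 19.5% wider and 21.8% narrower. The planned gene content of the domains was not run, as no annotation of their build was used. Merging peaks up to 5 kb apart gave 3531 domains, a median log2 ratio of A2780cis to A2780 of 0, 21.8% narrower, median H3K9ac shares of 30.0% and 31.9% (A2780, A2780cis), a CAOV4 peak in 81.0%, a CAOV4cis peak in 79.6%, neither in 13.2%, and hairpin log2 ratios of -0.46 (shMBD3.26) and -0.31 (shMBD3.232). Over 20 kb, 568 domains had H3K9ac shares of 46.2% and 61.1%, CAOV4 and CAOV4cis peaks in 69.5% and 69.0%, neither in 26.2%, and hairpin ratios of -0.25 and -0.12. Over 12.5 kb, the A2780cis H3K9ac share was 53.3%, and 75.8% had a CAOV4 peak and 19.6% neither. Requiring a single peak over 10 kb in both lists left 741 domains, with a median ratio of 0.064, 6.21% wider, 2.97% narrower, H3K9ac shares of 51.6% and 61.8%, a CAOV4cis peak in 78.5%, hairpin peaks in 100% and 99.1%, and hairpin ratios of -0.27 and -0.14. With the widest single peak as the width, the median ratio was 0.25, with 36.2% wider and 18.4% narrower. Linking peaks at 50% of the shorter one gave an A2780cis H3K9ac share of 53.0%. With equal numbers of the widest peaks per list, 74.6% had a CAOV4cis peak, 18.6% neither, and 98.7% and 98.0% a hairpin peak. Per H3K27ac length, the H3K9ac shares were 52.2% and 57.3%. Counting presence only at 50% covered gave 33.7% (CAOV4), 34.9% (CAOV4cis), 57.9% (neither), 70.8% and 77.7% (hairpins). Requiring 50% covered in both lines, an alternative chosen after seeing the data, gave 12.3% wider, 6.26% narrower, H3K9ac shares of 45.1% and 53.2%, CAOV4 and CAOV4cis peaks in 82.6% and 81.3%, neither in 13.0%, and hairpin peaks in 99.5% and 99.1%. Why these values moved was not tested beyond the smaller or longer set of regions each alternative takes. Without read depth or replicates, a domain present in 1 list and absent in another may differ by calling alone.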
